A study of Mus musculus with 14 samples.

Results

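The BCL2 family decides whether a cell keeps its mitochondria intact or releases cytochrome c and dies. The 10 members followed here are the guardians Bcl2, Bcl2l1 (Bcl-xL) and Mcl1, the pore-forming effectors Bax and Bak1, and the BH3-only proteins Bcl2l11 (Bim), Bid, Bmf, Pmaip1 (Noxa) and Bbc3 (Puma). They were chosen by name, and no threshold on their values was used. A probe set belonged to a member where the array annotation gave that symbol alone. This held for 30 probe sets of 9 members, among 18193 genes with a named probe set, and no probe set was named for Bax. Where a member had several probe sets, the one with the highest mean over all arrays is given first and called the leading one.

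Guardians bind and hold back the effectors and the BH3-only proteins, and BH3-only proteins free or activate Bak1 and Bax when a cell loses growth signals or suffers damage. In mouse bone marrow, interleukin 7 signalling supports Mcl1 and Bcl2 in early B lineage cells, Bim limits the number of lymphocytes, and Bcl-xL is known for its part in the survival of small pre-B cells. Bmf and Bim respond to loss of survival signals, and Puma and Noxa are classical targets of p53.

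The study profiled sorted bone marrow cells of C57Bl6 mice, 8 to 12 weeks old, on Affymetrix arrays, and asked how early B lineage cells differ by stage and by the presence of Pax5, the transcription factor that commits cells to the B lineage. Pax5KO engrafted cells (3 arrays) and WT engrafted cells (3 arrays) were B220+ λ5 reporter+ cells, sorted 4 weeks after fetal liver of day 15 embryos had been placed into sublethally irradiated mice. The donors of both engrafted groups carried the reporter for λ5, a surrogate light chain gene, and the Pax5KO donors lacked Pax5 in addition. The other 4 groups, with 2 arrays each, were sorted from mice without a transplant or any other treatment: Ly6D- common lymphoid progenitors (Ly6D- CLP), Ly6D+ CLP, ProB cells and PreB cells. The sort on B220 and the reporter sets which engrafted cells were seen, so cells of other stages in the same marrow were not sampled. The sort gates of the 4 other groups are not given beyond their names, and the titles call the arrays biological replicates without saying whether each came from 1 mouse or from a pool, so p-values measure only the spread between these samples.

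Values are log2 signals, on which a difference of 1 is a 2-fold change. The table has a common lowest value of 2.32, and on each array between 31.3% and 36.8% of the probe sets lay there, while a probe set within 0.5 of it on each array of a group is called at the floor here. The leading probe set of Igll1, the gene of λ5, read 11.41 to 13.12 on the engrafted arrays and 4.02 and 4.61 in Ly6D- CLP. The second probe set of Igll1 was dim, at 2.79 to 4.22 on the engrafted arrays and 2.37 and 2.85 in Ly6D- CLP. Ptprc, which encodes B220, read 10.46 to 13.02 on all 14 arrays, and 5.07 to 7.89 on its second probe set. Bright in every group, Ptprc does not check the sort on B220. The leading probe set of Pax5 read 7.57 to 7.95 on the Pax5KO arrays and 6.18 to 6.76 on the WT engrafted arrays. Its second probe set was at the floor on the Pax5KO arrays and read 3.42, 3.38 and 2.43 on the WT engrafted arrays. The deleted part of the gene is not stated, and a probe set outside it checks nothing. Both PreB arrays stood apart from the rest in ways their label does not name. The mean level of 10 granulocyte and monocyte markers was 8.72 and 9.05 on the PreB arrays, with Elane alone at the floor, against 3.20 on both ProB arrays, with Elane, Ngp, Camp and Ltf at the floor. The mean level of 4 NK cell markers was 6.81 and 7.21 in PreB, with Ncr1 at the floor, against 2.95 and 2.74 in ProB, with Gzma and Ncr1 at the floor. Of 4 heat shock genes, Hspa1a read 9.98 and 10.16 in PreB against 2.72 and 2.32 in ProB, and Hspa1b 14.08 and 13.91 in PreB against 7.86 and 8.53 in ProB. Dnajb1 overlapped between these groups, and Hsph1 was lower in PreB (10.37 and 10.66) than in ProB (11.08 and 11.23). The 3′ minus 5′ difference of the actin control, which grows as RNA is degraded, was 7.27 and 6.71 in PreB against 2.73 and 3.67 in ProB. That of the Gapdh control was 4.88 and 4.35 in PreB against 2.40 and 3.32 in ProB, and the highest values of that control were those of Pax5KO array 3 (5.79) and WT engrafted array 3 (5.44). Ly6D- CLP array 2 also carried the granulocyte and monocyte markers, with a mean of 8.23 against 4.86 on array 1. Ly6D+ CLP array 2 had 3′ minus 5′ differences of 5.57 (actin) and 4.55 (Gapdh), against 3.56 and 3.27 on Ly6D+ CLP array 1. Xist, which is transcribed in female cells, was high on all Pax5KO arrays, both ProB arrays and WT engrafted array 3 (10.71 or more) and at most 2.73 on the others.

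RefSeq promoter windows (assembly GRCm38.p6), 250 bases before to 50 bases after a transcript start, were read for 9 members, Bax among them and Pmaip1 not shown, 16 windows in all, to show the letters upstream of members that were high together. Of 5 motifs searched on both strands, the FOXO motif TGTTTAC stood in 2 of the 16 windows, 1 of Bbc3 and 1 of Bcl2l11, and in 3.65% of all 32851 windows. The E-box CAGCTG stood in 4, namely in all 3 windows of Bmf and in 1 of Bcl2l11, and in 16.3% of all windows. The NF-kB motif, GGGNN followed directly by TTTCC, stood in 3 (Bbc3, Bcl2l1 and Mcl1, 1 each) and in 1.63% of all windows, and neither the STAT motif TTCNNNGAA (8.3% of all windows) nor the EBF motif, TCCCN followed directly by NGGGA (0.904%), stood in any. The searched motifs were counted separately, and a match describes letters, not binding. The windows of 3 BH3-only genes that were high in PreB cells are printed 5′ to 3′ along the gene's strand. Capitals mark the FOXO motif or its reverse complement in the windows of Bbc3 (chr7:16310011-16310310, plus strand, 167 bases before the start) and Bcl2l11 (chr2:128125788-128126087, plus strand, 227 bases before the start). In Bmf, capitals mark the E-box, once before and once after the most upstream of its 3 starts (chr2:118549637-118549936, minus strand).
Bbc3: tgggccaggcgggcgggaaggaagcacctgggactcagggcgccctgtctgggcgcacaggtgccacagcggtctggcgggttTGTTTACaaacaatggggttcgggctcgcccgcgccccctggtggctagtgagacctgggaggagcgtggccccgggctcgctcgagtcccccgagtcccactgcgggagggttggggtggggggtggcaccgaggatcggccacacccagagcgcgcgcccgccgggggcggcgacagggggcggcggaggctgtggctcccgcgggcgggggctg
Bcl2l11: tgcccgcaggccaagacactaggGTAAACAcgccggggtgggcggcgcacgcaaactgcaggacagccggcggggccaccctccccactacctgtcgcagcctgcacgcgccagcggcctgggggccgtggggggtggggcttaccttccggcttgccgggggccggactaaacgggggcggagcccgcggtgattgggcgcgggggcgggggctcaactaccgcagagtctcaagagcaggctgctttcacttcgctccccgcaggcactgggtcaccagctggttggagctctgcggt
Bmf: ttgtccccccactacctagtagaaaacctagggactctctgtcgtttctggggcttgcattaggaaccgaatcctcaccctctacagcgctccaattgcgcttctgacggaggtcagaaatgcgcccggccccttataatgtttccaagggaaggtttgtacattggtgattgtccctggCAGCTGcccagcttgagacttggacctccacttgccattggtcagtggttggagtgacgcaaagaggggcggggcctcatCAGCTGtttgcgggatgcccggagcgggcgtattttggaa

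Over the 6 groups, Bmf, Pmaip1 and Bcl2 had the widest range of group means (6.04, 5.02 and 4.75 on the log2 scale) and Bak1 and Mcl1 the narrowest (1.71 and 1.54). By limma's moderated F test over all groups, 8 of the 9 members varied, against 21.4% of all genes. The strongest were Pmaip1 (adjusted p = 5.66e-05), Bmf (9.88e-05) and Bcl2l1 (1e-04), followed by Bbc3 (0.00481) and Bcl2 (0.0068). Bak1 (0.0423), Bcl2l11 (0.0449) and Bid (0.049) lay close to the threshold of 0.05, and Mcl1 did not pass (0.0727). In the F test over single probe sets, the leading ones of Bak1 (0.0595), Bcl2l11 (0.063) and Bid (0.0687) did not pass. Probe sets 1456381_x_at (0.0466) and 1416881_at (0.0277) of Mcl1 passed there, as did 1435448_at, 1456006_at and 1426334_a_at of Bcl2l11. When single arrays were left out, 5 to 7 members passed.

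**Figure D1:**
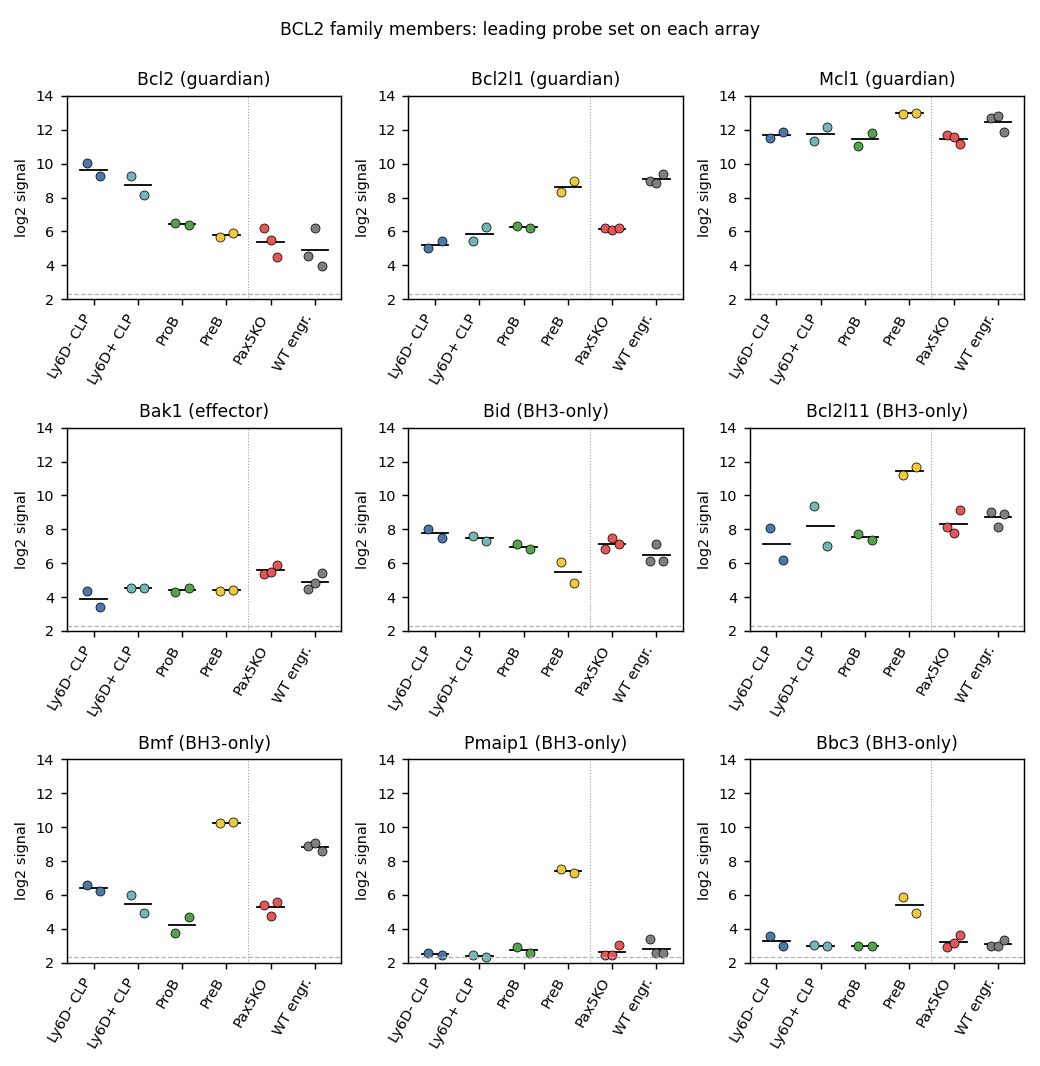
Log2 signal of the leading probe set of each of the 9 members (vertical axis, 1 panel a gene) in the 4 stages without transplant and, right of the dotted line, in Pax5KO and WT engrafted cells. Each point is an array, the bar is the group mean and the dashed line is the floor of 2.32; Bmf, Pmaip1, Bbc3 and Bcl2l11 are highest in PreB, Bcl2 is highest in Ly6D- CLP, and Bcl2l1 and Bmf are lower in Pax5KO than in WT engrafted cells.

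Among the guardians, Bcl2, the founding member of the family, was highest in the 2 CLP groups and above the floor in every group on its leading probe set. The Ly6D- CLP arrays read 10.04 and 9.25, the Ly6D+ CLP arrays 9.26 and 8.17, the ProB arrays 6.49 and 6.38, and the PreB arrays 5.70 and 5.90. It read 6.19, 5.51 and 4.48 in Pax5KO engrafted cells and 4.53, 6.19 and 3.99 in WT engrafted cells. Every CLP array lay above every other array, the CLP groups overlapped each other, and so did the engrafted groups. The second probe set, 1440770_at, kept that split, with 7.72 to 11.02 on the CLP arrays and 2.71 to 6.16 on the others. Probe sets 1437122_at and 1443837_x_at read 5.93 to 8.09 on the CLP arrays and were mostly at the floor elsewhere, with 4.38 on ProB array 1 the highest value outside the CLP groups. The fifth, 1422938_at, read 2.52 and 5.32 in Ly6D- CLP and at most 3.0 elsewhere.

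Bcl2l1, the guardian of later pre-B cells, was highest in WT engrafted and PreB cells. Values were 5.01 and 5.41 for Ly6D- CLP, 5.45 and 6.25 for Ly6D+ CLP, 6.29 and 6.20 for ProB, and 8.32 and 8.95 for PreB. The engrafted arrays read 6.21, 6.08 and 6.19 in Pax5KO and 8.99, 8.83 and 9.39 in WT. All 5 WT engrafted and PreB arrays lay above the 9 others, Pax5KO overlapped ProB and Ly6D+ CLP, and the WT engrafted and PreB groups overlapped each other. Only 1420888_at carried this signal: the other 3 probe sets of the gene read at most 2.65 on every array.

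Mcl1, a short-lived guardian that early lymphocytes depend on, was bright everywhere. Its signal was 11.52 and 11.85 for Ly6D- CLP, 11.33 and 12.14 for Ly6D+ CLP, 11.03 and 11.83 for ProB, and 12.93 and 13.00 for PreB. In Pax5KO engrafted cells it was 11.70, 11.55 and 11.17, and in WT engrafted cells 12.72, 12.80 and 11.85. PreB lay above all other groups on this probe set, and the order of the 4 lowest groups, ProB, Pax5KO, Ly6D- CLP and Ly6D+ CLP, did not exceed their spread. The 5 other probe sets also had their highest mean in PreB, but on 1437527_x_at, 1416880_at and 1416881_at the PreB arrays overlapped the WT engrafted arrays. Of the effectors, Bak1, which forms the pore in the outer mitochondrial membrane, had 4.34 and 3.40 as Ly6D- CLP values, 4.54 on both Ly6D+ CLP arrays, 4.31 and 4.54 for ProB, and 4.38 and 4.43 for PreB. It read 5.37, 5.47 and 5.91 in Pax5KO and 4.50, 4.82 and 5.43 in WT engrafted cells, so the engrafted groups overlapped. Its second probe set stayed at the floor on all arrays.

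Among the BH3-only genes, Bcl2l11, whose product Bim binds all guardians, had 8.05 and 6.17 as Ly6D- CLP values, 9.36 and 7.03 for Ly6D+ CLP, 7.72 and 7.35 for ProB, and 11.19 and 11.67 for PreB. In the engrafted groups it read 8.14, 7.76 and 9.12 (Pax5KO) and 9.03, 8.16 and 8.93 (WT). The PreB arrays lay above all others. Of the other groups each overlapped its neighbour in the order of means, while ProB lay below both engrafted groups. On 1435448_at the ProB arrays (6.37 and 6.21) were the lowest of all 14 and the PreB arrays (9.76 and 10.06) the highest. On each of the 3 other probe sets the PreB group had the highest mean. Bid, which links death receptors to mitochondria once caspase 8 has cut it, ran the other way. The Ly6D- CLP arrays had 8.01 and 7.50, the Ly6D+ CLP arrays 7.63 and 7.30, the ProB arrays 7.12 and 6.83, and the PreB arrays 6.09 and 4.85. Pax5KO engrafted cells had 6.85, 7.46 and 7.11, and WT engrafted cells 6.13, 7.16 and 6.13. The PreB arrays were the lowest of all 14, and the engrafted groups overlapped. The other probe sets of Bid read at most 4.15.

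Bmf, a BH3-only protein held at the cytoskeleton in healthy cells, had the widest range. Signals were 6.56 and 6.22 for Ly6D- CLP, 6.02 and 4.92 for Ly6D+ CLP, 3.78 and 4.68 for ProB, and 10.26 and 10.28 for PreB. It read 5.42, 4.78 and 5.59 in Pax5KO and 8.87, 9.08 and 8.60 in WT engrafted cells. From low to high the groups ran ProB, Pax5KO, Ly6D+ CLP, Ly6D- CLP, WT engrafted and PreB, and of these neighbours only Pax5KO and Ly6D+ CLP overlapped. The 2 other probe sets of Bmf read at most 2.78.

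Pmaip1 and Bbc3 were seen clearly in PreB only. Pmaip1 read 7.56 and 7.27 in PreB and at most 3.38 on the 12 other arrays, 9 of which were at the floor. Bbc3 read 5.88 and 4.93 in PreB and 2.92 to 3.61 elsewhere, and on 8 arrays it lay within 0.2 of its own lowest value. Their levels in the 5 other groups therefore have no order. In bulk samples, fewer cells of a type and less RNA per cell cannot be told apart, here and below.

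Setting Pax5KO against WT engrafted cells asks which transcripts of reporter+ cells differ with Pax5. The guardian Bcl2l1 and the death gene Bmf were both lower in Pax5KO cells, and no member was higher. Bcl2l1 averaged 6.16 ± 0.07 in Pax5KO and 9.07 ± 0.29 in WT engrafted cells, with n = 3 each and SDs after the ± sign here and below. The difference was -2.91 (SE 0.25, 95% interval -3.47 to -2.35, adjusted p = 0.000214). Bmf averaged 5.26 ± 0.42 in Pax5KO and 8.85 ± 0.24 in WT engrafted cells, a difference of -3.59 (SE 0.35, interval -4.38 to -2.79, adjusted p = 0.000468). The 2 called members of 9 stand beside 5.94% of all genes called in either direction, 2.29% lower and 3.64% higher. The groups did not overlap in 3 members, against 19.6% of all genes. The median difference of the 9 members was -0.18, and that of all genes 0.

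Mcl1 was the third member whose engrafted groups did not overlap. It averaged 11.47 ± 0.27 in Pax5KO and 12.46 ± 0.52 in WT engrafted cells, a difference of -0.99 (SE 0.33, adjusted p = 0.16). Its 5 other probe sets differed by -0.98 to -1.15, none of them called when probe sets were tested singly (3.23% of all probe sets were). With the replicate number as a block, which pairs same-numbered engrafted arrays, the adjusted p of Mcl1 was 0.0452. Arrays 1 and 2 did not clearly pair by number. Over 19 alternative settings the adjusted p of Mcl1 ran between 0.00481 and 1. The 6 remaining members were not called. Bak1 differed by 0.67 (interval 0.00 to 1.33, adjusted p = 0.328), Bid by 0.67 (interval -0.21 to 1.54, adjusted p = 0.553), and Bcl2 by 0.49 (interval -0.95 to 1.92, adjusted p = 1). Bcl2l11 differed by -0.37 (interval -1.95 to 1.21), Pmaip1 by -0.18 (interval -0.75 to 0.39) and Bbc3 by 0.11 (interval -0.51 to 0.73), each with an adjusted p of 1, and these wide intervals do not show equal levels.

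Some lists of markers of other stages and cell types also separated the engrafted groups, and others overlapped. Their part in the result was not tested. The mean of 4 pre-B markers (Cd2, Il2ra, Cd22, Ms4a1) was 3.75 to 4.17 on the Pax5KO arrays, with Cd2 at the floor, and 8.67 to 9.69 on the WT arrays. The mean of 5 lymphoid progenitor markers was 9.53 to 10.57 in Pax5KO and 7.35 to 8.36 in WT. In that list Flt3 averaged 9.46 in Pax5KO and 3.56 in WT. Ly6d went the other way, at 9.70 in Pax5KO and 10.76 in WT, and Il7r overlapped between the groups. The mean of 10 B lineage markers was 10.18 to 10.70 in Pax5KO and 11.06 to 11.46 in WT. The mean of 5 plasma cell markers overlapped, at 7.54 to 7.97 in Pax5KO and 7.25 to 8.02 in WT. Of these, Jchain averaged 12.10 in Pax5KO and 5.20 in WT. Sdc1 (6.20 in Pax5KO, 9.32 in WT) and Irf4 (7.17 in Pax5KO, 11.31 in WT) went the other way. Xbp1 averaged 10.75 in Pax5KO and 10.46 in WT, and Prdm1 was at the floor in both groups. The mean of the 4 NK markers was 3.92 to 4.47 on the Pax5KO arrays and 2.54 to 2.87 on the WT arrays, and that of the granulocyte and monocyte list was 4.26 to 4.86 in Pax5KO and 3.96 to 5.63 in WT. Set against WT engrafted array 3 alone, the WT array with high Xist, Bcl2l1 differed by -3.23 (adjusted p = 0.00356) and Bmf by -3.33 (adjusted p = 0.0201). The lone WT array is assumed there to vary like the other groups. Without the arrays numbered 3, which had the highest Gapdh 3′ minus 5′ values, Bcl2l1 differed by -2.76 (adjusted p = 0.00517) and Bmf by -3.87 (adjusted p = 0.00579). Over all 19 settings the adjusted p of Bcl2l1 ran between 3.51e-06 and 0.00626 and that of Bmf between 1.41e-05 and 0.0201.

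**Figure D2:**
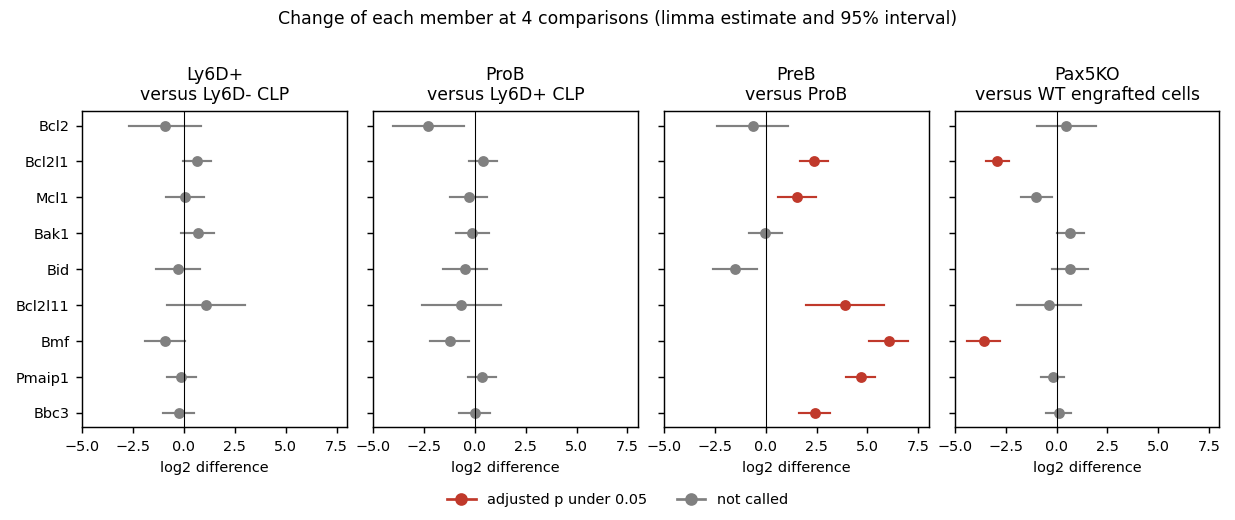
Log2 difference of each member (horizontal axis) at the 3 steps between stages and between Pax5KO and WT engrafted cells, with 95% intervals from limma; red marks an adjusted p under 0.05. None is red at the 2 earlier steps, 6 members are red to the right in PreB versus ProB, and Bcl2l1 and Bmf are red to the left in Pax5KO versus WT engrafted cells.

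Beyond the members, 5 lists of other genes of the pathway were read from the same fit. Between the engrafted groups, 3.64% of all genes were called higher in Pax5KO and 2.29% lower. Among 13 measured other family members 1 was higher in Pax5KO and none lower: Bok, an effector-like family member, averaged 8.14 ± 0.16 in Pax5KO and 4.66 ± 0.90 in WT engrafted cells (difference 3.49, SE 0.50, adjusted p = 0.00428). None of 19 caspase and apoptosome genes and none of 15 p53 arm genes was called. Of 10 death receptor genes 2 were higher, the TNF receptors Tnfrsf1b (8.06 in Pax5KO, 5.89 in WT, adjusted p = 0.0253) and Tnfrsf1a (7.01 in Pax5KO, 5.05 in WT, adjusted p = 0.0239). Of 22 upstream genes 2 were higher and 2 lower. Bach2, a transcriptional repressor of B cells, averaged 9.17 in Pax5KO and 12.59 in WT (difference -3.42, adjusted p = 0.00242), and the survival kinase Pim2 averaged 3.67 in Pax5KO and 6.40 in WT (difference -2.73, adjusted p = 0.0011). Jak3, which carries the interleukin 7 signal, was higher, at 5.52 in Pax5KO and 3.92 in WT (adjusted p = 0.0307). List medians ran between -0.04 and 0.10, close to the 0 of all genes.

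The step between CLP groups asked what changes when progenitors gain Ly6D, a marker of cells entering the B lineage. None of the 9 members was called between Ly6D+ and Ly6D- CLP, where 1.45% of all genes were called, and none had an unadjusted p under 0.05. The groups did not overlap in 3 members (Bcl2l1, Bak1 and Bmf), against 22.4% of all genes. The widest differences were those of Bcl2l11 (1.09, interval -0.85 to 3.02), Bcl2 (-0.93, interval -2.69 to 0.83) and Bmf (-0.92, interval -1.89 to 0.05). Pmaip1 was at the floor in both groups. Ly6D+ CLP array 2 had larger 3′ minus 5′ differences than Ly6D+ CLP array 1, and their part was not tested. The granulocyte and monocyte markers of Ly6D- CLP array 2 move with this comparison, and their part was not tested; no member was called when that array was left out.

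Foxo1 and Cdkn1a rose in Ly6D+ CLP. Foxo1, a transcription factor that drives early B cell genes and death genes, averaged 9.49 ± 0.32 in Ly6D+ and 5.74 ± 0.08 in Ly6D- CLP (SD, n = 2 each; difference 3.75, SE 0.38, adjusted p = 0.0018), and it was the 1 gene called of 22 upstream genes. Cdkn1a, the p53 target that halts the cell cycle, averaged 9.95 ± 0.05 in Ly6D+ and 6.15 ± 0.24 in Ly6D- CLP (difference 3.80, SE 0.21, adjusted p = 6.1e-05). Gtse1, a cell cycle protein that restrains p53, was the other of 2 p53 arm genes called, at 6.05 in Ly6D+ and 3.62 in Ly6D- CLP (adjusted p = 0.00303). No gene of the other 3 lists was called, at a step where 1.45% of all genes were, and the 5 list medians ran between -0.11 and 0.38.

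Between ProB and Ly6D+ CLP, Bcl2 was the member with the largest difference, and how it was called depended on the probe set. The leading probe set averaged 6.44 ± 0.08 in ProB and 8.72 ± 0.77 in Ly6D+ CLP with n = 2 each, a difference of -2.28 (SE 0.77, interval -4.04 to -0.52, adjusted p = 0.138). In the fit of single probe sets, which called 4.17% of all probe sets at this step, 1437122_at was lower in ProB, with 4.38 and 2.35 in ProB against 6.49 and 7.20 in Ly6D+ CLP (difference -3.47, SE 0.58, adjusted p = 0.0134). Probe set 1443837_x_at was lower too, with 2.32 and 2.58 in ProB, at the floor, against 7.26 and 6.41 in Ly6D+ CLP (adjusted p = 0.00973). All 5 probe sets of Bcl2 read lower on average in ProB, by 0.40 in the weakest case. With the probe sets averaged the gene was called (difference -2.66, adjusted p = 0.00574), and over 15 alternative settings its adjusted p lay between 0.00574 and 0.977.

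None of the 9 members was called on its leading probe set at this step, against 7.29% of all genes (1.93% higher and 5.36% lower), and 2 had an unadjusted p under 0.05, Bcl2 and Bmf. The groups did not overlap in 4 members (Bcl2, Bid, Bmf and Pmaip1), against 33.8% of all genes. Bmf averaged 4.23 ± 0.64 in ProB and 5.47 ± 0.78 in Ly6D+ CLP (difference -1.24, SE 0.43, adjusted p = 0.144); without Ly6D+ CLP array 2 its adjusted p was 0.0482, the lowest of 15 settings whose highest was 1. Ly6D+ CLP array 2 had larger 3′ minus 5′ differences than Ly6D+ CLP array 1 (actin 5.57 against 3.56). Other markers moved with this step too, and the part of these values and markers in it was not tested. The lymphoid progenitor list had means of 8.02 and 7.72 in ProB against 11.15 and 11.14 in Ly6D+ CLP, the granulocyte and monocyte list 3.20 on both ProB arrays against 4.69 and 5.03 in Ly6D+ CLP, and the NK list 2.95 and 2.74 in ProB against 5.40 and 4.92 in Ly6D+ CLP. Of the granulocyte and monocyte list, Mpo, a myeloid enzyme, averaged 3.23 in ProB and 10.87 in Ly6D+ CLP. Elane, Ngp, Camp and Ltf were at the floor in both groups, and S100a9 averaged 3.03 in ProB and was at the floor in Ly6D+ CLP. The plasma cell list had means of 8.23 and 8.57 in ProB against 6.11 and 5.30 in Ly6D+ CLP. Of that list, Jchain averaged 12.11 in ProB and 2.57 in Ly6D+ CLP, where it was at the floor. Irf4 averaged 8.95 in ProB and 4.45 in Ly6D+ CLP, and Xbp1 10.19 and 9.60. Sdc1 went the other way, at 8.29 in ProB and 9.56 in Ly6D+ CLP, and Prdm1 was at the floor in both groups. Xist was high in ProB and at the floor in Ly6D+ CLP. Of the members, Bid (-0.49), Bcl2l11 (-0.66), Mcl1 (-0.31), Bcl2l1 (0.40), Pmaip1 (0.36), Bak1 (-0.12) and Bbc3 (-0.01) had intervals that crossed 0.

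**Figure D3:**
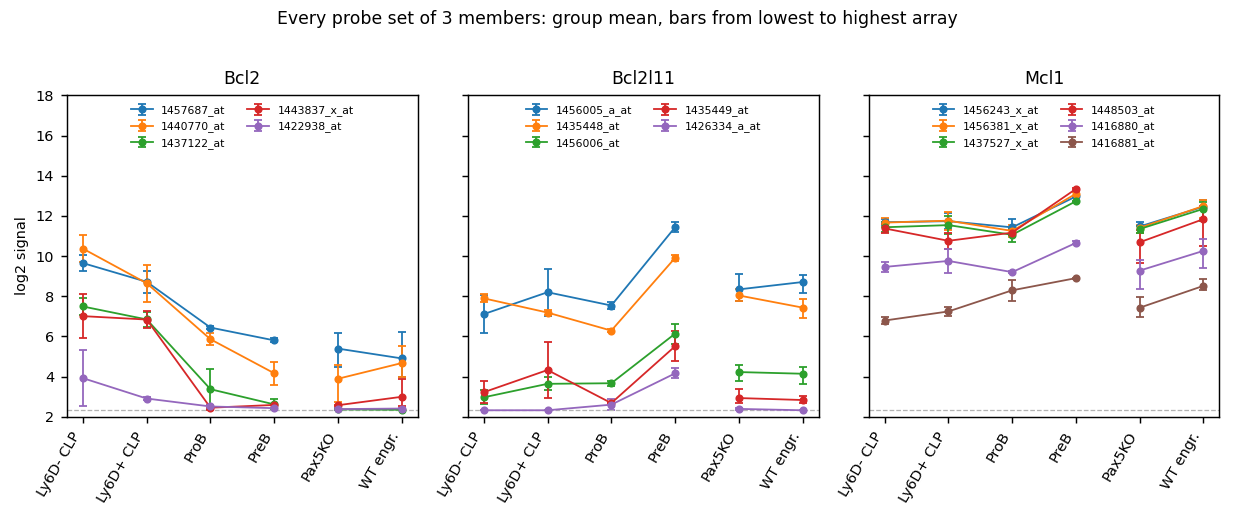
Group means of every probe set of Bcl2, Bcl2l11 and Mcl1 (log2 signal, vertical axis), with bars spanning the lowest to the highest array and the floor dashed. All 5 probe sets of Bcl2 have higher means in both CLP groups than in any other group, and all 5 of Bcl2l11 and all 6 of Mcl1 have their highest mean in PreB.

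Of 22 upstream genes 5 were lower in ProB and 1 higher (list median -0.86, all genes 0), at a step where 5.36% of all genes were lower and 1.93% higher. Trib3, a stress-induced pseudokinase, averaged 3.95 in ProB and 7.23 in Ly6D+ CLP (difference -3.28, adjusted p = 0.0149), and the survival kinase Pim1 averaged 8.42 in ProB and 10.95 in Ly6D+ CLP (difference -2.53, adjusted p = 0.00887). Bcl6, a repressor that protects pre-B cells from damage, was higher, at 6.38 in ProB and 3.12 in Ly6D+ CLP (difference 3.26, adjusted p = 0.00179). Of 15 p53 arm genes 3 were lower, namely Sesn1 (-2.34, adjusted p = 0.00164), Trp53inp1 (-2.14, adjusted p = 0.0411) and Cdkn1a (-1.98, adjusted p = 0.00107), and 1 was higher. Casp9, the apoptosome's caspase, was lower (4.87 in ProB, 6.94 in Ly6D+ CLP, adjusted p = 0.0122) and Aifm1, a mitochondrial flavoprotein, higher (10.31 in ProB, 8.64 in Ly6D+ CLP, adjusted p = 0.00867), the 2 calls among 19 genes of that list. The receptor Tnfrsf1a, the 1 call among 10 death receptor genes, averaged 4.32 in ProB and 6.87 in Ly6D+ CLP (adjusted p = 0.0173). None of the 13 other family members was called, and the medians of these 4 lists ran between -0.37 and 0.

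Between PreB and ProB, 6 of the 9 members were higher in PreB and none lower, against 11.5% of all genes called, 6.35% higher and 5.19% lower. They were 4 BH3-only genes, Bmf, Pmaip1, Bcl2l11 and Bbc3, and 2 guardians, Bcl2l1 and Mcl1. The median difference of the members was 2.39, and that of all genes 0. The groups did not overlap in 8 members, against 41.8% of all genes.

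Bmf averaged 10.27 ± 0.01 in PreB and 4.23 ± 0.64 in ProB with n = 2 each, a difference of 6.04 (SE 0.43, interval 5.07 to 7.01, adjusted p = 8.36e-05). Pmaip1 averaged 7.41 ± 0.20 in PreB and 2.75 ± 0.26 in ProB (difference 4.66, SE 0.31, adjusted p = 5.37e-05). For Bbc3 the means were 5.40 ± 0.68 in PreB and 3.0 ± 0.00 in ProB (difference 2.40, SE 0.33, adjusted p = 0.00255). Since Pmaip1 and Bbc3 lay at or near their lowest values in ProB, these differences can understate the change in transcript.

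Bcl2l11 averaged 11.43 ± 0.34 in PreB and 7.54 ± 0.26 in ProB, a difference of 3.90 (SE 0.85, interval 1.96 to 5.83, adjusted p = 0.02). Of its 5 probe sets 4 were called higher when tested singly, against 7.31% of all probe sets called, and 1435448_at gave the firmest value, with 9.76 and 10.06 in PreB against 6.37 and 6.21 in ProB (difference 3.62, SE 0.32, adjusted p = 0.000348). On the leading probe set the call was lost when PreB array 2, PreB array 3 or ProB array 2 was left out (adjusted p of 0.0602, 0.0944 and 0.0957; 3.37e-05 to 0.113 over 15 settings).

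The guardian Bcl2l1 averaged 8.64 ± 0.45 in PreB and 6.25 ± 0.06 in ProB (difference 2.39, SE 0.30, adjusted p = 0.00167). Mcl1 averaged 12.96 ± 0.06 in PreB and 11.43 ± 0.57 in ProB (difference 1.54, SE 0.41, adjusted p = 0.0437). Of the 6 probe sets of Mcl1, 2 were called when tested singly, and the call on the leading one was lost in 8 of 15 settings (adjusted p 0.015 to 0.98), among them leaving out PreB array 2 (0.131), PreB array 3 (0.157) or ProB array 1 (0.181). Bid averaged 5.47 ± 0.88 in PreB and 6.98 ± 0.21 in ProB, a difference of -1.50 (SE 0.47, adjusted p = 0.0816), and it was called in 5 of 15 settings (adjusted p 0.0274 to 1). Bcl2 (-0.64, interval -2.39 to 1.12) and Bak1 (-0.02, interval -0.83 to 0.79) were not called.

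The granulocyte, NK, Hspa1a, Hspa1b and RNA end values of the PreB arrays, given at the start, move with each of these differences, and their part in them was not tested. Among single genes, the granulocyte protein S100a8 averaged 12.44 in PreB and 3.24 in ProB, and the NK and T cell granzyme Gzma averaged 10.63 in PreB and 2.41 in ProB. Cd3e, Cd3g and Cd3d, which define T cells, were at the floor in both groups. Fitted with the 4 arrays of these groups alone, 1 member was called (Pmaip1, adjusted p = 0.0404). The PreB libraries also differed from ProB in Xist (2.33 on both PreB arrays, 10.71 and 11.49 on the ProB arrays).

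**Figure D4:**
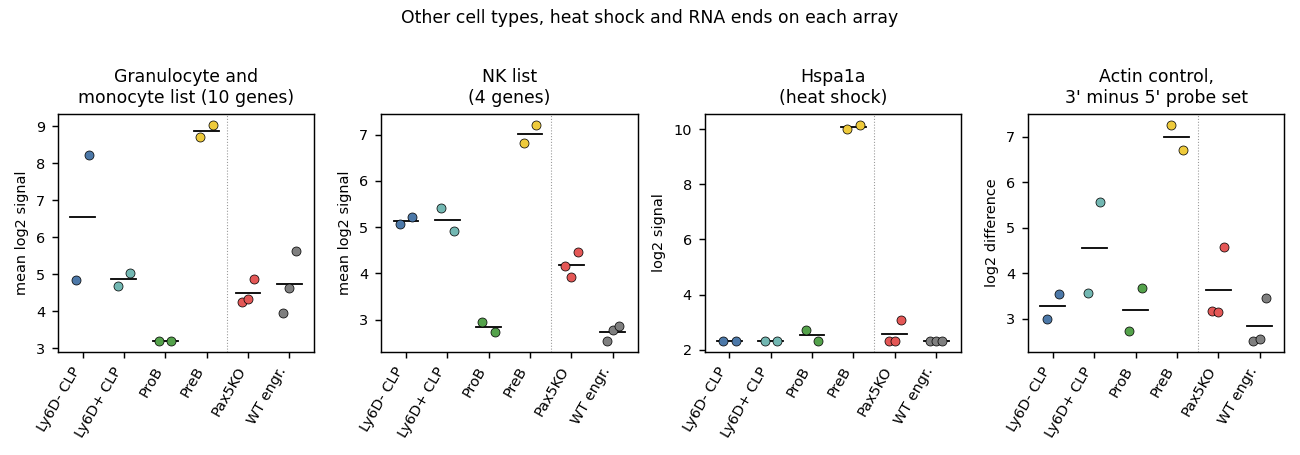
Mean log2 signal of the granulocyte and monocyte list and of the NK list, log2 signal of Hspa1a, and the 3′ minus 5′ log2 difference of the actin control (vertical axes) on each array, with group means as bars and engrafted groups right of the dotted line. The PreB arrays are the highest in all 4 panels, and Ly6D- CLP array 2 is the only other array above 6 in the first.

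Of 22 genes that act upstream of the family, 10 were higher in PreB and 1 lower (list median 1.44, all genes 0). At this step 6.35% of all genes were higher and 5.19% lower. The granulocyte, NK, heat shock and RNA end values of the PreB arrays move with the genes of all 5 lists too, and their part was not tested. Rel, an NF-kB subunit, averaged 8.79 ± 0.08 in PreB and 3.98 ± 0.60 in ProB (difference 4.81, adjusted p = 0.0179). Ddit3, the stress factor CHOP, averaged 8.46 in PreB and 4.55 in ProB (difference 3.91, adjusted p = 0.00116), and Pim1 averaged 11.94 in PreB and 8.42 in ProB (difference 3.52, adjusted p = 0.00131). Among 19 caspase and apoptosome genes 3 were higher and 1 lower. The inhibitors of apoptosis Birc3 (11.04 in PreB, 6.07 in ProB, adjusted p = 0.00279) and Birc2 (9.16 in PreB, 7.22 in ProB, adjusted p = 0.0493) were higher, and Birc5, a mitotic member of that group, was lower (7.50 in PreB, 9.58 in ProB, adjusted p = 0.00742).

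Of 15 p53 arm genes 3 were higher, among them Trp53inp1 (13.48 in PreB, 10.45 in ProB, adjusted p = 0.00669) and the stress regulator Sesn1 (10.41 in PreB, 8.65 in ProB, adjusted p = 0.00476). Gtse1 was lower (4.76 in PreB, 7.87 in ProB, adjusted p = 0.00027). In the death receptor list Fasl, the ligand of Fas, averaged 4.68 ± 1.75 in PreB and was at the floor on both ProB arrays (adjusted p = 0.0377), and the adaptor Traf2 was lower (5.90 in PreB, 7.06 in ProB, adjusted p = 0.0394). Among the other family members Bok was lower (3.73 in PreB, 6.72 in ProB, adjusted p = 0.0155) and Bnip3, a mitochondrial protein of the hypoxia response, higher (9.10 in PreB, 6.37 in ProB, adjusted p = 0.0226). The medians of these 4 lists ran between -0.25 and 0.22.

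Because the PreB arrays stood apart, the engrafted groups were also set against ProB, a choice made after seeing those arrays. Bmf and Bcl2l1 were higher in WT engrafted cells, and the other 4 genes that were high in PreB were not called. Bmf differed by 4.62 (SE 0.39, adjusted p = 0.000486) and Bcl2l1 by 2.83 (SE 0.28, adjusted p = 0.000992), 2 of 9 members higher, against 4.93% of all genes called and 3.63% called higher. Pmaip1 differed by 0.09 (interval -0.55 to 0.72) and Bbc3 by 0.12 (interval -0.57 to 0.81), while Bcl2l11 differed by 1.17 (interval -0.60 to 2.94, adjusted p = 0.526) and Mcl1 by 1.03 (interval 0.18 to 1.87, adjusted p = 0.192). WT engrafted arrays had granulocyte and monocyte list means of 3.96 to 5.63, above the 3.20 of both ProB arrays, and Hspa1a at the floor. Xist read 2.33, 2.58 and 12.68 on the WT engrafted arrays against 10.71 and 11.49 on the ProB arrays. The part of these markers in the differences was not tested.

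In Pax5KO engrafted cells no member was called against ProB, where 5.24% of all genes were, and 2 had an unadjusted p under 0.05. Bcl2l1 differed by -0.08 (interval -0.71 to 0.55), Bmf by 1.03 (interval 0.14 to 1.92, adjusted p = 0.221) and Bak1 by 1.16 (interval 0.42 to 1.90, adjusted p = 0.0905). Tested singly, the second probe set of Bcl2l11, 1435448_at, was called higher, where 2.72% of all probe sets were called (difference 1.75, SE 0.29, adjusted p = 0.0178). Both comparisons use the ProB arrays of the PreB comparison, and transplantation, reporter and sort cannot be told apart from the stage of the cells in them.

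The pattern of Bmf over the 14 arrays was most like those of Rnase6 (Pearson r = 0.96), Nfkbia (0.96), the inhibitor of NF-kB, and Sec11c (0.96), among 12266 genes above the floor in some group. Nfkbia averaged 11.14 in Pax5KO and 12.97 in WT engrafted cells. The pattern of Pmaip1 was most like those of Plbd1 (0.99), Hspa1a (0.99) and Gzma (0.99), each of which was high on the PreB arrays alone. These correlations describe arrays that fall into separate groups and share those groups.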

How the data were processed

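The 10 members and 5 pathway lists were chosen from general knowledge, with earlier results of these data known. The deposited table holds log2 signals that the authors made from 14 Affymetrix arrays; RMA, GCRMA and limma were used, per the submitters' processing notes, and which of them made the table is not given in the sources used here. Values were used as deposited. Array medians lay between 2.41 and 2.52. Probe sets were named by the platform annotation, updated through RefSeq (GRCm38.p6), and each of 18193 genes was represented by its probe set of highest mean; single probe sets were also fitted over 45037. Group means over all 14 arrays were fitted with limma 3.58.1 in R 4.3.3 (lmFit, eBayes, 8 residual degrees of freedom), two-sided, with Benjamini-Hochberg adjustment over all genes and calls under 0.05. The fit was tested on simulated data with independent normal noise and no floor. That test does not cover values at the floor, paired arrays or arrays of unequal quality. Named from each list were the called genes, at most the 3 with the largest difference per comparison; likeness was ranked for the 2 members of widest range. The main fit used no pairing. Same-numbered Pax5KO and WT arrays deviated together from their group means (r = 0.13, 0.30 and 0.54). However, Pax5KO array 1 was closer to WT array 2 (r = 0.38), and Pax5KO array 2 had r = 0.19 with WT array 1. The numbers in the titles thus did not settle how arrays 1 and 2 pair. They served as pairs only in the fit with the replicate block. Groups of 2 and 3 arrays set the precision. Alternatives covered probe set choice, filters, scaling, array weights, the prior, a minimum difference, the arrays fitted, the replicate block and leaving out arrays.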

Additional observations from a re-analysis of the deposited data

How the results depend on the processing

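Bcl2l1 and Bmf were lower in Pax5KO than in WT engrafted cells under all 19 alternative settings, with differences of -3.23 to -0.75 and -3.87 to -1.21; the smallest came from averaging probe sets, of which the others were at the floor. With array weights 4 members were called between the engrafted groups, Mcl1 and Bak1 in addition. That fit called 3065 of all 18193 genes, against 1080 in the main fit. No member was called between the CLP groups under any of 15 settings. Between ProB and Ly6D+ CLP 1 member was called with probe sets averaged and 1 with dim genes left out (Bcl2 in both), and 0 to 1 when single arrays were left out (Bmf, without Ly6D+ CLP array 2). Between PreB and ProB 1 member was called with only the groups compared in the fit, and 4 to 5 with single arrays left out; Pmaip1 was called under all 14 of its settings. Against ProB, 0 members were called in WT engrafted cells with only the groups compared. Fits of only the groups compared have fewer arrays to estimate the spread. Over all groups 5 to 7 members passed the F test with single arrays left out. Calls on the 30 probe sets of the members, added up over the 3 stage steps and the engrafted comparison, numbered 14, and 11 to 18 with single arrays left out. Most of the 14 fell between PreB and ProB, where 7.31% of all probe sets were called. The share of all probe sets was 4.17% between ProB and Ly6D+ CLP and 3.23% between the engrafted groups.

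Pairing by replicate number between arrays without transplant was not borne out (r = 0.00, -0.04 and 0.08). With the replicate block 3 members were called between the engrafted groups, 0 at each CLP and ProB step, and 7 between PreB and ProB (Bid in addition), and it ended no other call of these comparisons. Counts of genes called moved more. Between the engrafted groups 1080 genes were called, 3065 with array weights, 697 with only the groups compared, 318 with a minimum log2 difference of 1, and 676 to 1034 with single arrays left out. The CLP step gave 264 genes, 169 with the block and 1 to 345 over the other settings, and 694 to 1144 with single arrays left out. ProB against Ly6D+ CLP gave 1327, 3 to 1716 and 1060 to 2129, and PreB against ProB 2100, 487 to 2548 and 1491 to 2695. Against ProB, WT engrafted cells gave 897, 100 to 1306 and 489 to 1825, and Pax5KO cells 953, 166 to 7564 and 565 to 1883. The 7564 came from equal array medians, which shift the many probe sets at the floor. Groups of 2 and 3 arrays limit every value, and a probe set at the floor cannot show a fall.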
